A study of Mus musculus with 27 samples.

Results

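The genes described here encode the subunits of voltage-gated and related potassium, sodium and calcium channels, together with the cyclic nucleotide-gated pacemaker channels of the Hcn family. They were taken by symbol from the annotation of 1 array platform, as every probe set whose symbol began with Kcn or Cacn, or with Hcn or Scn and a digit. The rule leaves out Kcnj9 (2 probe sets) and Kcnj10. A probe set is the group of short probes on an array whose signals are combined into 1 intensity. The rule took 73 probe sets of 61 genes, out of 12422 probe sets that are not array controls. The rule itself uses symbols and no measured value, but members were chosen with earlier results of these data known.

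RNA of whole brain was measured in 4 DBA and 5 C57 mice with 1 array per animal, to ask how brain expression differs between these inbred strains. All were 10 weeks old and untreated. The labels write the strains as DBA/2J, with no sex given, and as C57BL/2, given as male, so strain and sex cannot be told apart where the DBA animals were not male. They do not say how the animals were housed or whether they shared litters, so p-values measure the spread between these 9 arrays only.

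Voltage-gated channels open when the membrane depolarises. Sodium channels carry the rising phase of the action potential, calcium channels couple depolarisation to transmitter release and to signalling inside the cell, and potassium channels return the membrane to rest. Inward rectifier and two-pore potassium channels set the resting potential, and Hcn channels carry a current that opens on hyperpolarisation and paces rhythmic firing. Most channels combine pore-forming subunits with auxiliary subunits that alter their gating or their transport to the membrane.

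Promoter sequences from RefSeq (GRCm38.p6) were set beside the genes, as the 250 bases before the outermost start listed for a gene in the RefSeq promoter table, and 46 of the 61 genes had an entry. The gene tables of RefSeq place some starts farther out, so 28 of the 46 windows overlap with the annotated span of their gene and 18 lie wholly before it. The 3 shown are that of Kcnj8, a pore subunit of ATP-sensitive channels, and, of the windows wholly before their gene, those with the lowest and the highest GC content, of Kcnab1 and Kcna3. They lie at chr6:142571615-142571864, minus strand, at chr3:64948962-64949211, plus strand, and at chr3:107035912-107036161, plus strand. Capitals mark GC boxes, the letters GGGCGG read on either strand.
Kcnj8: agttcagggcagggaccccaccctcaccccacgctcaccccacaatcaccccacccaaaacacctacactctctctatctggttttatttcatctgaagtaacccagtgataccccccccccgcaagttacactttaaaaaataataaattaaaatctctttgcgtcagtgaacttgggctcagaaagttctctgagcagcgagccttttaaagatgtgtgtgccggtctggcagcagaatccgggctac
Kcnab1: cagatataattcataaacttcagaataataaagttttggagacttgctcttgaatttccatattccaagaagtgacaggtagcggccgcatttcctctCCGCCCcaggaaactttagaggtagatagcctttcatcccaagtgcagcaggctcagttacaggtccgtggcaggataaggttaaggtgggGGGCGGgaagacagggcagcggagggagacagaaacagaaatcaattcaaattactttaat
Kcna3: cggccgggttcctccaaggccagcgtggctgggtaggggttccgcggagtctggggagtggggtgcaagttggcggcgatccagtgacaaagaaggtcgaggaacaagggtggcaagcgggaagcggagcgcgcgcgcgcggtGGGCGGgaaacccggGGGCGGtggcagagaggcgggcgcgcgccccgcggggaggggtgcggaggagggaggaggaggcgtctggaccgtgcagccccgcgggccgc
The window of Kcna3 has 74.4% GC and that of Kcnab1 45.2% GC, and each holds 2 GC boxes. That of Kcnj8 has 49.2% GC and no GC box. Over all 46 windows, a GC box was found in 52.2% of the channel promoters and in 42.7% of 17491 promoters of protein-coding genes cut the same way. It was found in 21 of the 37 promoters of genes bright enough to test and in 3 of the 9 of genes that were not. CCAAT on either strand was found in 15.2% of channel promoters and in 36.5% of all promoters. TATAAA was in 0 channel promoters and in 12.4% of all promoters, and TGACGTCA in 0 and in 1.98%. Each motif was counted on its own, whether or not it overlapped with another, and a match is a description of the letters only. The shares were not tested.

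Array medians of the intensity ran from 159.6 to 197.75, and the correlation over probe sets (not independent of each other) was 0.946 to 0.970 for every pair of arrays. All 9 neuron markers on the array were above the brightness limit, and their summed intensity was 43449 to 49473 in DBA brain and 42653 to 45580 in C57 brain. Of 9 muscle markers on the array, Myh7, Acta1, Actc1, Ckm and Tnnt2 were above the limit (summed intensity 1060.2 to 1309 in DBA and 1036 to 1397 in C57), and Mb, Myh6, Myl2 and Tnni3 below it. Of 5 liver markers, Ttr, Cyp2e1 and Apoa2 were above it (3237 to 4439 in DBA and 1331 to 3177 in C57), and Alb and Apoa1 below it. Most of this sum was Ttr, which the choroid plexus makes in brain. Its geometric means were 3445 in DBA and 1915 in C57, against 163 and 183 for Cyp2e1. C57 animals 1 and 3 lay together, both above or both below the other C57 animals, at 45.4% of the 9316 tested probe sets, against 10.3% to 33.0% for other pairs of C57 animals. At the channel probe sets the share was 40.7%. Leaving these animals out moved 10 of the 22 channel differences over 0.2 (log2) by more than 1.5 times, and those values are given beside the results. For Gapdh, the control set at the 3' end was set against that at the 5' end, and their log2 ratio was -0.44 to -0.32 in DBA and -0.29 to -0.19 in C57 animals, without overlap. The ratios of Actb, Tfrc and Pcx overlapped between the strains. Their means were 0.56, 1.74 and 0.66 in DBA and 0.69, 1.88 and 0.98 in C57 animals. For each of these controls, and for Gapdh (-0.36 in DBA and -0.24 in C57), the mean was thus higher in C57. These ratios follow RNA integrity and labelling, and their part in the strain differences below was not tested.

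Of the 73 channel probe sets, 54 (of 49 genes) were bright enough to be tested, 74.0% against 75.0% of all probe sets. Strains were compared with limma over all 9316 tested probe sets, on log2 intensities as DBA minus C57, and a call means a Benjamini-Hochberg adjusted p under 0.05. Only 1 channel probe set passed, that of Kcnj11, which was lower in DBA brain. That is 1 of 54, or 1.85%, against 2.50% of all tested probe sets. No channel was called higher (0.891% of all tested sets were) and 1 was called lower (1.61% of all). Kcnj11 was also the only channel set whose strains did not overlap, where 6.45% of all tested sets had no overlap. At an unadjusted p under 0.05 there were 6 channel sets, or 11.1%, against 12.2% of all. The shares called and with an unadjusted p under 0.05 lay near the background. The share without overlap, 1.85%, lay below it, and these shares were not tested.

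**Figure D1:**
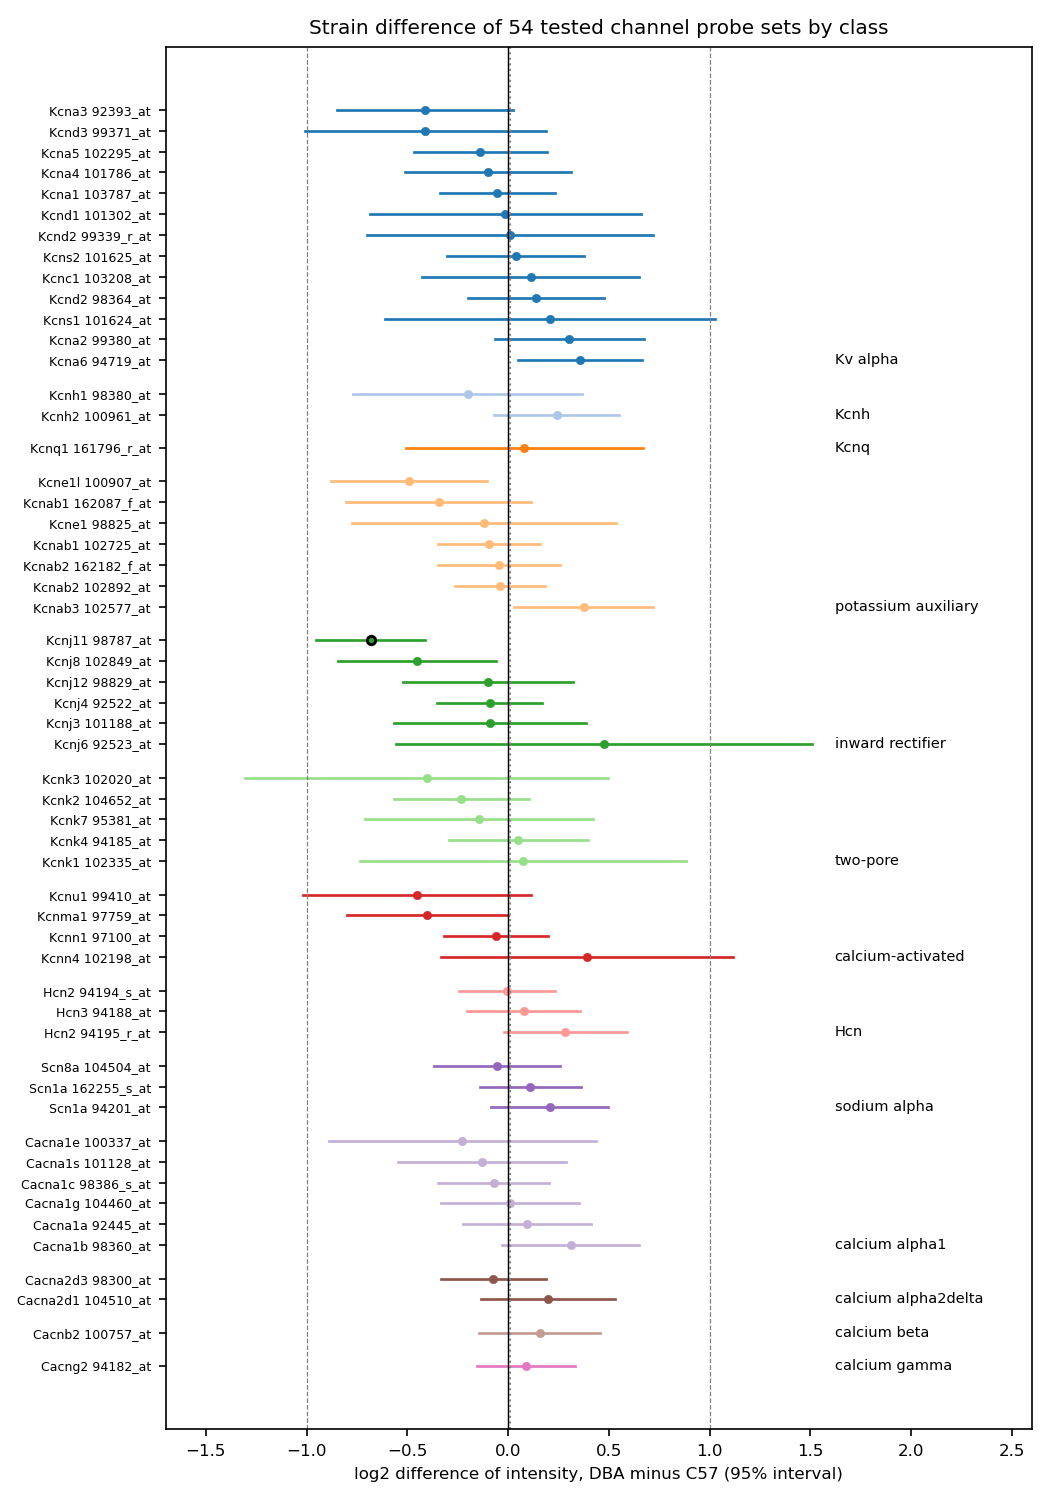
Strain difference of each of the 54 tested channel probe sets, grouped by class. The horizontal axis is the log2 difference of intensity, DBA minus C57, with the 95% interval as a line, and the dashed lines mark 2-fold. The ringed point is Kcnj11, the only set past the threshold, at -0.68.

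The differences were small in both directions. The channel sets ran from -0.68 to 0.48 on the log2 scale, 24 above 0 (44.4%, against 51.7% of all tested sets) and 30 below it. Their median was -0.04, beside 0.01 over all tested sets. No channel set differed by more than 2-fold, against 2.06% of all tested sets. The 95% interval of the difference lay within 2-fold for 48 of the 54 channel sets, or 88.9%, against 85.3% of all. It reached beyond 2-fold for the sets of Kcnd3, Kcns1, Kcnn4, Kcnu1, Kcnj6 and Kcnk3, for which a 2-fold difference could not be told from none. By ion, the median difference was -0.07 for 38 potassium channel sets, 0.11 for 3 sodium channel sets, 0.05 for 10 calcium channel sets and 0.08 for 3 Hcn sets.

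**Figure D2:**
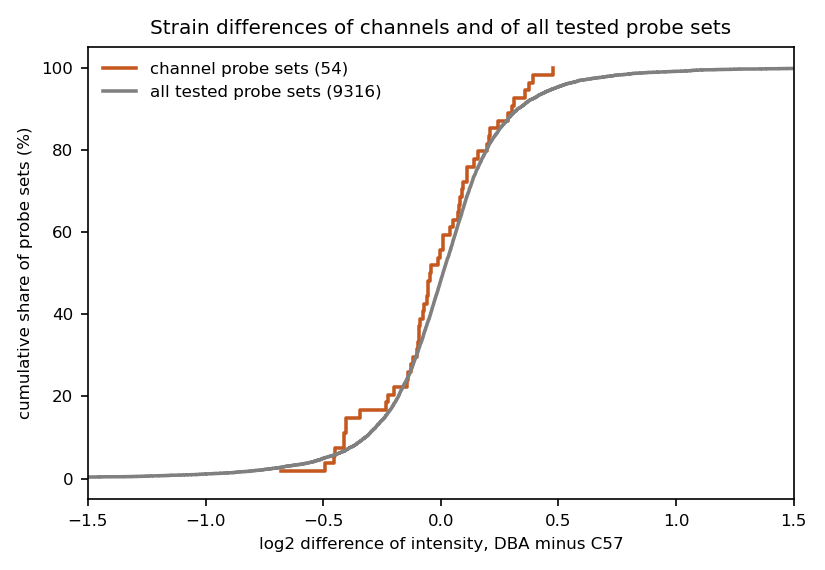
Cumulative share of probe sets (vertical axis, percent) by log2 difference of intensity, DBA minus C57 (horizontal axis, cut off at both ends). The curve of the 54 channel sets follows that of the 9316 tested sets and ends at -0.68 and 0.48, while the curve of all sets goes on beyond both.

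Inward rectifiers pass potassium more easily into the cell than out of it. Kcnj11 and Kcnj8 form the pores of ATP-sensitive channels, which open when ATP in the cell runs low, and they assemble with the sulfonylurea receptors Abcc8 and Abcc9. Kcnj11 (98787_at, chromosome 7) had intensities of 202, 257, 190.2 and 245 in DBA animals, against 384, 354, 367, 315 and 362 in C57 animals. Every DBA animal lay below every C57 animal. Kcnj11 was 1.60-fold lower in DBA brain (log2 difference -0.68 ± 0.12 SE, 95% interval -0.95 to -0.41, adjusted p = 0.0135). The call was lost without DBA animal 1 (-0.64, adjusted p = 0.0531) and without C57 animals 1 and 3 (-0.63, adjusted p = 0.0886). Kcnj11 was measured by this 1 probe set alone, so no other set of the gene could be put beside it. Whether its probes bind RNA of both strains equally well was not tested. In RNA of a whole brain, fewer cells of a type and less RNA per cell cannot be told apart.

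Kcnj8 (102849_at), named after its values were seen, had intensities of 84.5, 63.0, 63.2 and 49.1 in DBA animals, against 72.4, 85.1, 113 and 84.2 in C57 animals 1 to 4 and 86.3 in C57 animal 5. DBA animal 1 lay inside the C57 range and the other DBA animals below it. Its log2 difference of -0.45 ± 0.18 (95% interval -0.85 to -0.06) did not pass the threshold (adjusted p = 0.312). Abcc8 (103273_s_at) is the gene next to Kcnj11 on chromosome 7, and it read 293, 244, 299.8 and 269 in DBA animals, against 293, 226, 258, 245 and 256 in C57 animals. The strains overlapped, with a log2 difference of 0.11 ± 0.11 (adjusted p = 0.786), and the dimmer Abcc8 set differed by 0.32 ± 0.55 (adjusted p = 0.884), and by 1.08 without C57 animals 1 and 3 (adjusted p = 0.299). For Abcc9 (97172_s_at) the log2 difference was -0.21 ± 0.15 (adjusted p = 0.671), and -0.12 without C57 animals 1 and 3. Among the 5 protein-coding genes on each side of Kcnj11 in the RefSeq order, looked at after its value was seen, 6 genes had tested sets. Of these 8 sets limma called 0, and 0 had an unadjusted p under 0.05. Their log2 differences ran from -0.46 ± 0.37 for Otog to 0.32 for the dimmer Abcc8 set.

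**Figure D3:**
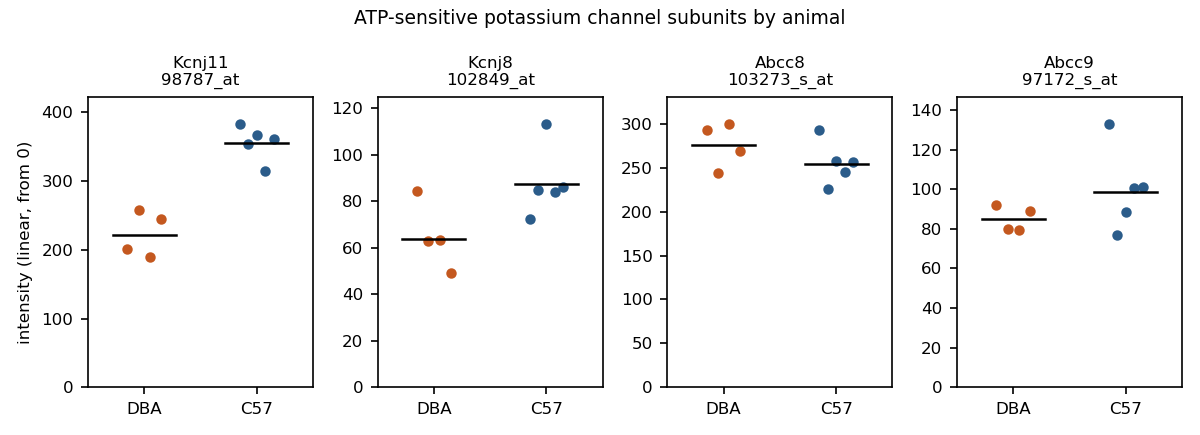
Intensity (linear, vertical axes from 0) of the subunits of ATP-sensitive potassium channels in each animal, with 4 DBA points left of 5 C57 points and a line at the geometric mean. The strains separate for Kcnj11, with geometric means of 222 in DBA and 356 in C57, and overlap for Kcnj8, Abcc8 and Abcc9.

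The other inward rectifiers did not pass the test. Kcnj4 (92522_at), a strong rectifier of forebrain neurons and the brightest set of the class, read 483, 606, 498 and 516 in DBA animals, against 609, 598, 525, 475 and 596 in C57 animals. The strains overlapped (log2 difference -0.09 ± 0.12, 95% interval -0.35 to 0.17, adjusted p = 0.839). Kcnj3 and Kcnj6 are subunits of the G protein-gated channels that inhibitory transmitter receptors open. Kcnj3 (101188_at) differed by -0.09 ± 0.21 and the strong rectifier Kcnj12 (98829_at) by -0.10 ± 0.19. Kcnj6 (92523_at) read 62.1, 78.1, 46.6 and 61.5 in DBA animals, against 84.7, 55.0, 14.2, 69.6 and 35.4 in C57 animals. C57 animal 3 was the lowest, and C57 animals ranged both above and below the DBA animals. With a log2 difference of 0.48 ± 0.46, the 95% interval (-0.56 to 1.51) was too wide to place Kcnj6 either way. Without C57 animals 1 and 3 the difference was 0.25. Over the 6 tested sets of the class, 1 difference was above 0 and the median was -0.09.

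Kv alpha subunits form the voltage-gated potassium pores of axons, terminals and dendrites. None of their 13 tested sets passed the threshold, 7 differences were above 0 and the median was 0.01, with a range of -0.41 to 0.36. Kcna6 (94719_at), a delayed rectifier subunit of axons, read 253, 235, 239.7 and 173 in DBA animals, against 169.7, 170.4, 173, 154 and 206 in C57 animals. The DBA animals other than animal 4 lay above all C57 animals. Its log2 difference, 0.36 ± 0.14, was the one with the smallest p of the class (95% interval 0.05 to 0.67, unadjusted p = 0.0278, adjusted p = 0.314). Kcna3 (92393_at), best known from lymphocytes and microglia, read 128, 138, 93.1 and 143 in DBA animals, against 200.0, 147, 219, 150.5 and 125 in C57 animals. C57 animals 1 and 3 were highest, and C57 animal 5 lay within the DBA range. Kcna3 differed by -0.41 ± 0.20 (95% interval -0.85 to 0.02, adjusted p = 0.445), and by -0.18 without C57 animals 1 and 3 (adjusted p = 0.716).

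Microglial markers did not all differ in the same direction. Of 8 tested microglia markers, the complement genes C1qb and C1qc were lower in DBA past the threshold. The brightest, Ctss, differed by 0.32 ± 0.12 (adjusted p = 0.290), 2 of the 8 lay above 0, and the summed intensity of the list was 6140 to 6651 in DBA and 6106 to 7524 in C57. The C1qc call was lost on leaving out any 1 of 6 animals, C57 animals 2, 4 and 5 or DBA animals 1, 2 and 3, with adjusted p of 0.0525 to 0.104, and also with median centring (0.107) and with no filter on dim sets (0.0656). The median log2 difference of the list was -0.17. The part of these cells in the Kcna3 values was not tested. Kcna1 (103787_at), the axonal subunit whose human mutations cause episodic ataxia, was the brightest Kv set. It read 957, 802, 1118 and 771 in DBA animals, against 998, 883, 882, 925 and 998 in C57 animals. The DBA range enclosed the C57 range, with a log2 difference of -0.05 ± 0.13 and a 95% interval of -0.34 to 0.23. Kcna2 (99380_at), which assembles with Kcna1 along axons, differed by 0.30 ± 0.16 (adjusted p = 0.531), and by 0.51 without C57 animals 1 and 3 (adjusted p = 0.0993).

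None of the remaining Kv sets passed the threshold. The A-type subunits inactivate fast and limit back-propagation in dendrites. Kcnd2 had 2 sets, at 0.14 ± 0.15 (98364_at) and 0.01 ± 0.32 (99339_r_at), and Kcnd1 differed by -0.01 ± 0.30. Kcnd3 (99371_at) differed by -0.41 ± 0.27, with a 95% interval of -1.01 to 0.19. Kcnc1 (103208_at), which lets fast-spiking neurons repolarise quickly, differed by 0.11 ± 0.24, Kcna4 by -0.10 ± 0.19 and Kcna5 (102295_at) by -0.14 ± 0.15. The silent subunits, which form no channel alone, differed by 0.21 ± 0.37 (Kcns1, 0.14 without C57 animals 1 and 3) and 0.04 ± 0.15 (Kcns2).

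The Kcnh and Kcnq families act over longer times. Kcnh2 (100961_at), whose human counterpart sets cardiac repolarisation, read 708, 1068, 870.3 and 755 in DBA animals, against 639, 656, 732, 728 and 810.5 in C57 animals. DBA animals 2 and 3 were above all C57 animals and the others lay within their range (log2 difference 0.24 ± 0.14, 95% interval -0.07 to 0.55, adjusted p = 0.559). Kcnh1 (98380_at) differed by -0.20 ± 0.25, and by -0.37 without C57 animals 1 and 3. Kcnq1 (161796_r_at), known from heart and inner ear, differed by 0.08 ± 0.26 (95% interval -0.51 to 0.67).

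Auxiliary subunits of potassium channels had 7 tested sets, of which 1 lay above 0, with a median of -0.09 and a range of -0.49 to 0.38. Kcne1l (100907_at), a single-span subunit encoded on chromosome X, read 143, 142, 108 and 100.1 in DBA animals, against 129, 157, 178, 210.0 and 194 in C57 animals. C57 animal 1 fell inside the DBA range and the other C57 animals above it. The log2 difference was -0.49 ± 0.17 (95% interval -0.88 to -0.10, unadjusted p = 0.0180, adjusted p = 0.253). Kcnab3 (102577_at), a cytosolic beta subunit named after its values were seen, read 367, 502, 378 and 336 in DBA animals, against 351, 323, 334, 248 and 266 in C57 animals. DBA animal 4 overlapped with C57 animal 1 (log2 difference 0.38 ± 0.15, 95% interval 0.03 to 0.72, adjusted p = 0.353).

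Kcnab2 (102892_at), the brightest auxiliary set and a partner of Kcna1 and Kcna2 in axons, was close in the strains. It read 2206, 2314, 2324 and 1958 in DBA animals, against 2248, 2312, 2206, 2054 and 2492 in C57 animals. The first set differed by -0.04 ± 0.10, and the other Kcnab2 set (162182_f_at) differed by -0.05 ± 0.14. The Kcnab1 sets differed by -0.09 ± 0.11 (102725_at) and -0.35 ± 0.21 (162087_f_at), and Kcne1 by -0.12 ± 0.29. Sets whose names end in f_at can match families of similar sequence, which can make the second set of each beta subunit less specific.

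**Figure D4:**
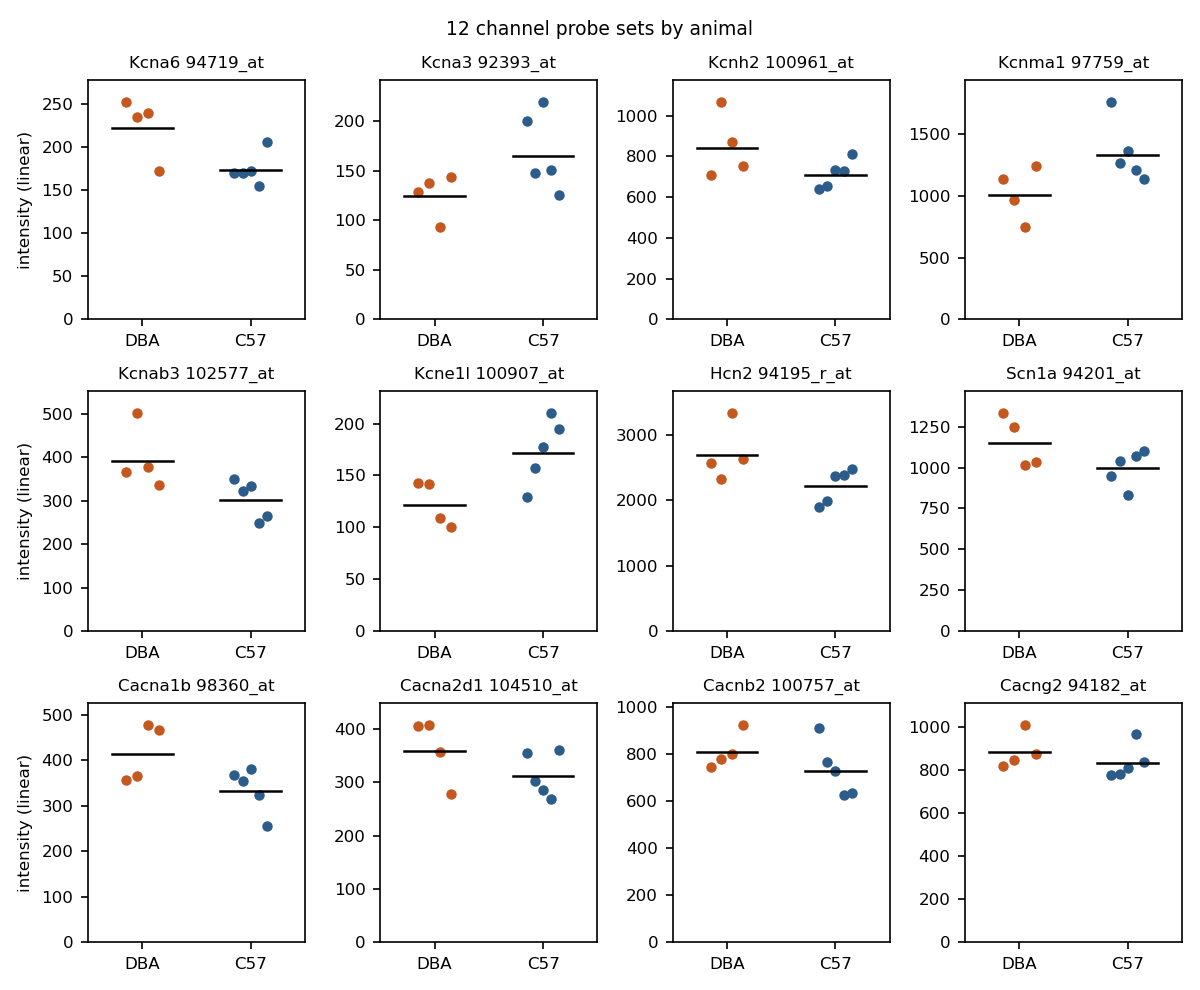
Intensity (linear, vertical axes from 0) of 12 probe sets of the channel classes in each animal, with 4 DBA points left of 5 C57 points and a line at the geometric mean. In every panel at least 1 DBA animal lies within the C57 range or at least 1 C57 animal within the DBA range.

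Two-pore channels carry the background potassium current of resting neurons and glia. Kcnk1 (102335_at) was the brightest set of the class and read 3160.4, 2506, 2396 and 2275 in DBA animals, against 1748, 4024, 1081, 3120.1 and 3614 in C57 animals. C57 animals 1 and 3 were the lowest of all 9 and the other C57 animals were above or among the highest DBA animals. The log2 difference was 0.07 ± 0.36 (95% interval -0.74 to 0.88) with all animals and -0.48 without C57 animals 1 and 3 (adjusted p = 0.236). Within C57 the SD of its log2 intensity was 0.80, larger than in 99.8% of 635 tested sets of like brightness (within 0.5 on the log2 scale), and the highest animal was 3.72 times the lowest. Within DBA the SD was 0.21 and the ratio 1.39.

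Kcnk3 (102020_at), an acid-sensitive background channel, spread the other way. It read 44.3, 89.5, 18.2 and 81.6 in DBA animals, against 66.4, 63.9, 66.2, 61.2 and 68.6 in C57 animals. The SD was 1.06 within DBA, the highest of the 54 channel sets in that strain, and 0.063 within C57, the lowest. The log2 difference was -0.40 ± 0.40 (95% interval -1.31 to 0.50), and DBA animal 3 lay below the brightness limit of 35.4. Kcnk2 (104652_at), opened by stretch and lipids, read 1161, 882, 1328 and 1308 in DBA animals, against 1511, 1420.4, 1381, 1414 and 1099.7 in C57 animals. All C57 animals but animal 5 were above the DBA animals (log2 difference -0.23 ± 0.15, 95% interval -0.57 to 0.10, adjusted p = 0.618). The related stretch-activated Kcnk4 (94185_at) differed by 0.05 ± 0.15 and Kcnk7 by -0.14 ± 0.25.

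**Figure D5:**
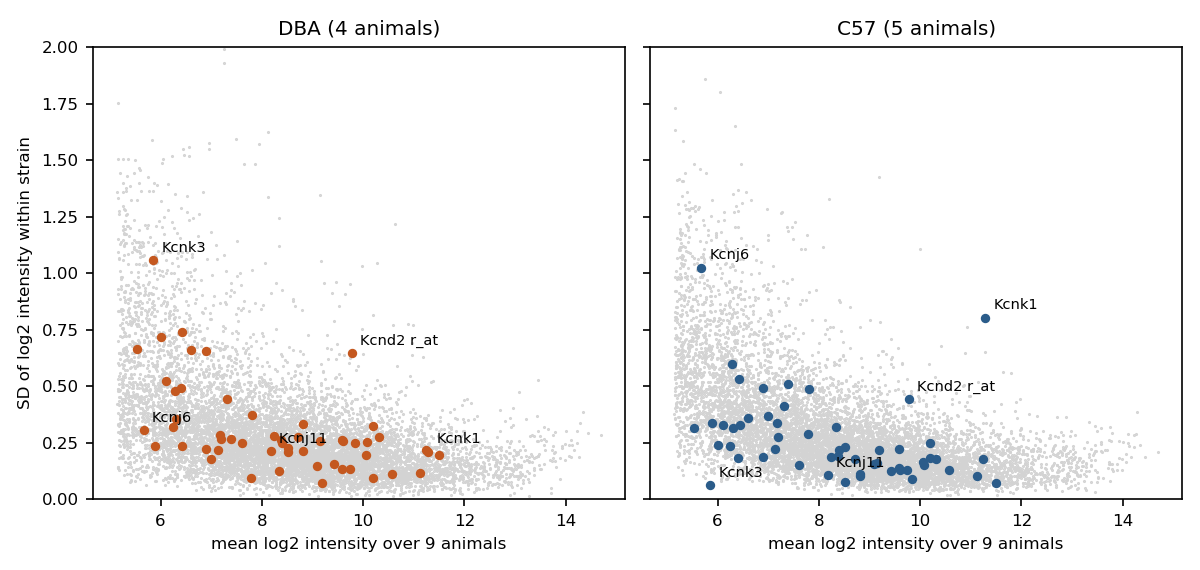
SD of log2 intensity among 4 DBA animals (left) and 5 C57 animals (right) against the mean log2 intensity over 9 animals, for the channel probe sets (large points) and all tested sets (grey, drawn up to an SD of 2). Kcnk1 stands above sets of its brightness in C57, at an SD of 0.80, and Kcnk3 is the channel set with the highest SD in DBA and the lowest in C57.

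Calcium-activated potassium channels link calcium entry to repolarisation. Kcnma1 (97759_at), the large-conductance channel that shortens spikes and curbs release, read 1141, 967, 751 and 1246 in DBA animals, against 1764, 1271, 1367, 1208 and 1134 in C57 animals. DBA animals 1 and 4 lay within the C57 range and the other DBA animals below it. The log2 difference was -0.40 ± 0.18 (unadjusted p = 0.0487, adjusted p = 0.406), and -0.25 without C57 animals 1 and 3. The related Kcnu1 (99410_at), known from sperm, was put in this class by its symbol alone. It read 79.3, 64.3, 34.2 and 63.0 in DBA animals, against 92.1, 62.7, 106, 64.4 and 76.7 in C57 animals. The strains overlapped and C57 animals 1 and 3 were highest (log2 difference -0.45 ± 0.25, adjusted p = 0.545). Without these C57 animals the Kcnu1 difference was -0.23. The small-conductance Kcnn1 (97100_at) differed by -0.06 ± 0.12, and Kcnn4 (102198_at), the intermediate-conductance channel of blood and immune cells, by 0.39 ± 0.32 (0.73 without C57 animals 1 and 3, adjusted p = 0.382).

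The Hcn family had 3 tested sets with a median difference of 0.08. Hcn2 was measured by 2 sets that differed in their strain comparison. By 94195_r_at it read 2574, 2330.3, 3330.0 and 2626 in DBA animals, against 1894, 1984, 2374, 2382 and 2479 in C57 animals. DBA animal 2 lay inside the C57 range and the others above it (log2 difference 0.28 ± 0.14, 95% interval -0.02 to 0.59, adjusted p = 0.456). By 94194_s_at it read 1387, 1508, 1677 and 1501 in DBA animals, against 1307, 1501, 1598, 1589 and 1632 in C57 animals. This set showed no shift between the strains, with a log2 difference of -0.01 ± 0.11 and a 95% interval of -0.24 to 0.23. Hcn3 (94188_at) differed by 0.08 ± 0.12.

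Sodium channel alpha subunits form the pore of the action potential current. Scn1a, which carries much of that current in inhibitory interneurons, was measured by 2 sets. By 94201_at it read 1333, 1247, 1014 and 1032 in DBA animals, against 948, 1042, 834, 1073 and 1105 in C57 animals. DBA animals 1 and 2 were above all C57 animals and the others within their range (log2 difference 0.21 ± 0.13, 95% interval -0.08 to 0.50, adjusted p = 0.602). Without C57 animals 1 and 3 it was 0.099. By 162255_s_at the log2 difference was 0.11 ± 0.11 (95% interval -0.14 to 0.36). Scn8a (104504_at), which is dense at the axon initial segment and nodes, differed by -0.05 ± 0.14 (95% interval -0.37 to 0.26, adjusted p = 0.926).

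Calcium channel alpha1 subunits form the pore and set the channel type. Cacna1b (98360_at), the pore of the N-type channel of nerve terminals, read 358, 366, 478 and 468 in DBA animals, against 367, 355, 382, 324 and 256 in C57 animals. DBA animals 3 and 4 lay above all C57 animals and the others within their range. The log2 difference was 0.31 ± 0.15 (95% interval -0.03 to 0.65, adjusted p = 0.464). Cacna1a (92445_at), the P/Q-type pore abundant in Purkinje cells, read 633, 634, 672 and 455 in DBA animals, against 499, 522, 519, 594 and 649.7 in C57 animals. DBA animal 4 was the lowest of all 9, and the log2 difference was 0.10 ± 0.14 (95% interval -0.22 to 0.41). Beside it, 6 of 8 tested cerebellum markers lay above 0 by their brightest set (51.7% of all tested sets did), with a median of 0.22. None passed the threshold, and their summed intensity was 20070.2 to 25905 in DBA and 20038 to 22726 in C57. By their dimmer sets Gabra6 differed by -0.42 ± 0.20, Pvalb by -0.04 ± 0.16 and Pcp2 by 0.25 ± 0.16. The part of the cerebellum markers in the Cacna1a values was not tested.

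The other alpha1 sets were close to 0 or dim. The L-type Cacna1c (98386_s_at) differed by -0.07 ± 0.12 and the T-type Cacna1g (104460_at) by 0.01 ± 0.15. Cacna1e (100337_at), the R-type pore, differed by -0.23 ± 0.30 (-0.12 without C57 animals 1 and 3), and Cacna1s (101128_at), the L-type channel of skeletal muscle, by -0.13 ± 0.19. Among auxiliary subunits, Cacna2d1 (104510_at), the target of gabapentin, read 406, 408, 357 and 278 in DBA animals, against 355, 302, 286, 269 and 360.5 in C57 animals. DBA animals 1 and 2 were above all C57 animals (log2 difference 0.20 ± 0.15, 95% interval -0.14 to 0.53, adjusted p = 0.687). Cacna2d3 (98300_at) read 1079 to 1242 in DBA animals, against 1084 to 1426 in C57 animals, and differed by -0.07 ± 0.12. Cacnb2 (100757_at), a beta subunit that brings the pore to the membrane, differed by 0.16 ± 0.13 (95% interval -0.14 to 0.46). Cacng2 (94182_at), known as stargazin for its role in AMPA receptor transport, differed by 0.09 ± 0.11 (95% interval -0.15 to 0.33).

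The 19 channel sets below the brightness limit of 35.4 were not tested. They include every set of 12 genes. Scn3a, Scn7a, Scn9a and Scn10a had geometric mean intensities over the 9 animals of 4.01, 9.55, 19.7 and 10.2. Scn9a and Scn10a are best known from sensory neurons outside the brain. Kcnj2 and Kcnj5 were at 8.71 and 8.61, Kcnj1, the renal inward rectifier, at 5.07 and 19.4 by its 2 sets, and Kcnj15 at 11.6 and 2.37. Kcna7 was at 19.8, Cacna1h at 26.0, Kcnmb1, a smooth muscle partner of Kcnma1, at 6.11, and Cacng1, of skeletal muscle, at 32.2. The rest are second sets of genes with a tested set, namely of Kcnq1, Kcna5, Cacna1e, Kcnj6 and Scn8a, at 5.89 to 34.5. A dim set does not show that a gene is silent. Just inside the limit were Kcne1 at 46.2 and the tested Kcnj6 set at 50.8, and just outside it the second Cacna1e set at 34.5.

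Genes that act with these channels were read from 4 lists by their brightest set. No gene of these lists passed the threshold. Of 16 tested channel partners, 2 had an unadjusted p under 0.05 and the median difference was -0.02. The smallest p was that of Stx1a (100933_at), the terminal SNARE protein that binds calcium channels, with geometric means of 1621 in DBA and 2080 in C57 animals (log2 difference -0.36 ± 0.10, adjusted p = 0.140). Of 4 calcium release channels 0 had an unadjusted p under 0.05, with a median of -0.07 and the smallest p for Itpr2 (101441_i_at, -0.46 ± 0.24, adjusted p = 0.520). Of 14 other cation and chloride channels 0 had one, with a median of -0.00 and the smallest p for Trpc4 (94100_s_at, 0.21 ± 0.13, adjusted p = 0.602).

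The list of ion pumps and exchangers, which keep the gradients the channels draw on, was tested at 10 genes. Of these 10 genes 0 were called, 6 had an unadjusted p under 0.05 (12.2% of all tested sets did), and the median was 0.19. Slc12a2 (99500_at), the chloride importer, read 2013, 2177, 1952 and 2561 in DBA animals, against 2796, 2749, 2841, 3106 and 2893 in C57 animals. All DBA animals lay below all C57 animals, and the log2 difference was -0.41 ± 0.11 (adjusted p = 0.0990). The other genes were named after their values were seen. Slc12a5 (100370_at), the neuronal chloride exporter, differed by 0.51 ± 0.18 (adjusted p = 0.266). The sodium-calcium exchanger Slc8a1 (99524_at) differed by -0.49 ± 0.15 (adjusted p = 0.169). Its dimmer set (99525_at) differed the other way, by 0.22 ± 0.57 (adjusted p = 0.927), and by 0.67 without C57 animals 1 and 3. The plasma membrane calcium pump Atp2b2 (95324_at) differed by 0.38 ± 0.12 (adjusted p = 0.1998). The calcium pump Atp2a3 (103935_at) differed by 0.40 ± 0.17 (0.25 without C57 animals 1 and 3) and the sodium pump subunit Atp1b2 (93664_at) by 0.34 ± 0.14.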

How the data were processed

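Whole brain RNA was prepared from lipid-rich tissue with a column kit and labelled as cRNA from 5 ug, per the labels' protocols. The deposited table holds linear intensities of 12488 probe sets (66 controls) on 9 arrays. How the scans were summarised and normalized is not given in the sources used here. The mean of the deposited intensities without the top and bottom 2% was 500.3 on every array. A second platform in the series was not used here.

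Intensities were raised to a floor of 1.7 (0.977% of values) and taken to log2. The dimmest 25% were left out, and array scaling was kept as deposited. limma 3.58.1 (R 4.3.3) fitted strain over 9316 probe sets and was tested on simulated data. Groups follow sample titles, because every description carries the name C57 1. The number of arrays limits precision, and no detection calls were used. Named were channels past the threshold or without overlap and, per class, the set with the smallest p, the largest difference and the highest intensity (25 sets). The other tested members are given by value to account for all. Gene names come from the platform annotation, and all 73 sets matched RefSeq. Members and lists were chosen with earlier results of these data known. Alternatives changed scaling, floor, filter, variance model, threshold and animals, took the replicate number as a block and took 1 probe set per gene. Figures used matplotlib 3.10.9.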

Additional observations from a re-analysis of the deposited data

Results flagged for a closer look

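In 7 of the 164 groups looked at (the DBA animals and the C57 animals of 54 channel sets and 28 sets of other named genes), the most extreme animal lay farther from the next than Dixon's 95% limit allows, and chance alone flags about 1 in 20 groups. Among DBA animals, animal 4 read 455.4 for Cacna1a (92445_at), where the others read 633.1 to 671.9. DBA animal 3 read 102.8 for Kcnj12 (98829_at), where the others read 129 to 133.4. Among C57 animals, animal 5 read 1099.7 for Kcnk2 (104652_at), where the others read 1381 to 1510.9, and 51.7 for Cacna1e (100337_at), where the others read 69.9 to 77.1. C57 animal 3 read 102.8 for Kcnh1 (98380_at), where the others read 171.6 to 206.6. C57 animal 2 read 1316.6 for Scn8a (104504_at), where the others read 1008.7 to 1087.6. The same animal read 1305.8 for the myelin gene Cldn11 (100044_at), where the others read 1922.7 to 2173.4. Kcnj11, Kcnk1 and Kcnk3 had no such animal.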

How the results depend on the processing

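Of the 951 values of single channel sets under an alternative, 948 stayed on their side of the threshold, 3 calls were lost and 0 gained. In the fit used above, every channel set but Kcnj11 had an adjusted p of 0.253 or more. Few values were thus near enough to change sides. The sign changed for 58 values in 25 sets, with neither past the threshold. Kcnj11 stayed negative under all 18 alternatives and past the threshold under 15, with adjusted p of 0.00438 to 0.219. Its losses were without DBA replicate 1 (-0.64, adjusted p = 0.0531), with the replicate number as a block (-0.68, adjusted p = 0.219), and without C57 animals 1 and 3 (-0.63, adjusted p = 0.0886), an alternative chosen after seeing the data. The block fits the replicate number besides strain and leaves C57 animal 5 with no partner. The fits that left out 1 animal other than DBA animal 1 kept the call. The causes of the losses were not tested. The count of called channel sets, and of those called lower, was 0 with the replicate block. There all probe sets gave 73 calls (0.784%) in place of 233. It was 0 without C57 animals 1 and 3, where all gave 188 (2.02%). On leaving out 1 animal it was 0 to 1, where all gave 184 to 228 (1.98% to 2.45%). At an adjusted p under 0.01 it was 0, and the count over all probe sets is not given here. After the strain mean was taken off each probe set, same-numbered animals of the strains correlated at -0.17 to -0.01. The labels do not say what the numbers mark, and these correlations cannot decide whether such animals shared a litter or batch. Channel sets without overlap numbered 3 after quantile normalization (where 6.90% of all tested sets had none), 3 after median centring (5.55%), 6 without C57 animals 1 and 3 (14.4%), and 1 to 4 on leaving out 1 animal (7.61% to 11.9%). With the dimmest 50% left out, 21 channel sets had no value and the median of the other 33 was 0.051. Slc12a2 passed the threshold with the dimmest 50% left out (just under it), with a trended robust variance (0.0287) and without DBA replicate 4 (0.0399). With the replicate block, C1qb (adjusted p = 0.0899), C1qc (0.147) and the Mobp set (0.0869) were lost too. Dim sets near the limit of 35.4 have wide intervals.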

Other observations

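Differences of myelin genes, DBA minus C57, were mostly negative, and none passed the threshold by its brightest set. Of 7 tested oligodendrocyte markers 1 lay above 0, the median log2 difference was -0.36, and the summed intensity was 21263 to 25070 in DBA and 21351 to 29379 in C57. Mog, of the outer myelin sheath, differed by -0.62 ± 0.18 (adjusted p = 0.137), Cldn11, of its tight junctions, by -0.59 ± 0.16 (adjusted p = 0.127) and Mag, of the inner sheath, by -0.57 ± 0.16 (adjusted p = 0.120). Without C57 animal 2 all 3 of these genes passed by their brightest sets, with adjusted p of 0.0279 for Mog, 0.0203 for Cldn11 and 0.0494 for Mag. The dimmer set of Mag (161846_r_at) differed the other way, by 0.29 ± 0.18 (adjusted p = 0.612). That of Cldn11 (161529_r_at) differed by -0.63 ± 0.34 (adjusted p = 0.520). Mobp passed by its dimmest set alone (99046_at, -0.84 ± 0.12, adjusted p = 0.00416) and differed by -0.11 ± 0.19 by its brightest. Myelin genes were named after their values were seen.

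Ttr (95350_at), made by the choroid plexus in brain and by liver, had geometric means of 3445 in DBA and 1915 in C57 animals (log2 difference 0.85 ± 0.30, adjusted p = 0.257). Without C57 animals 1 and 3 it was 0.50 (adjusted p = 0.277).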
